A study of Mus musculus with 6 samples.

Results

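The insulin receptor to FOXO route was followed through 9 genes: Insr, Irs1, Irs2, Irs4, Pik3r1, Akt1, Akt2, Foxo1 and Foxo3. They were taken by name from a table of 50559 genes, all 9 were found, and all 9 had enough counts to be tested. RNA was sequenced from the hypothalamus of mice in 6 libraries, 3 labelled SRC1 KO and 3 labelled wild type. The deleted gene, Ncoa1, encodes SRC-1, which nuclear receptors such as the steroid hormone receptors recruit to raise transcription. The labels give no strain, sex, age, treatment or targeted exon, nor whether each library is 1 animal, so p-values measure the spread between these libraries, which may be technical. The deletion is not labelled as limited to a cell type, and no agent or second allele is named for either group.

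Insulin binds a receptor tyrosine kinase, which phosphorylates the insulin receptor substrate (IRS) adaptors. These recruit phosphatidylinositol 3-kinase (PI3K), whose lipid product brings the kinase AKT to the membrane. AKT phosphorylates the FOXO transcription factors and so holds them out of the nucleus. In the hypothalamus this route is known for its part in feeding and glucose control, and FOXO1 is known there as a regulator of the peptide genes Agrp and Pomc.

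Foxo1, the FOXO member best studied in hypothalamic neurons, was the 1 gene of the 9 that fell in the knockout, to 0.713 of its wild-type level (adjusted p 0.0481, edgeR), a call that held in 6 of 15 alternative settings. Of all 20257 genes tested, 0.592% fell and 0.242% rose at an adjusted p under 0.05. The 8 others did not pass the test, and their log2 fold changes ran from -0.51 for Irs4 to 0.10 for Irs1. Irs4, the adaptor with the highest level of the IRS genes, had a mean difference as large as that of Foxo1 but spread so widely between libraries that the groups overlapped. The median over the 9 was -0.052, against 0.0043 over all genes tested.

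The comparison rested on libraries of 36613507 to 46755553 counts. Ncoa1 checked the labels, with 1692, 1478 and 1766 counts in the knockout against 5180, 4630 and 5406 in wild type, so each library matched its group. Its log2 fold change was -1.71 ± 0.065 (SE). None of the 16 listed hypothalamus markers was at 0 counts in any library, a low bar at this depth that does not compare the dissections. Other cell markers differed between the groups. All 12 ependymal and tanycyte markers were below wild type without overlap, of which 8 passed the test, and all 10 oligodendrocyte markers were above it without overlap, of which 6 passed. Over all genes tested, 17.6% did not overlap and 0.834% passed, in either direction. Of 7 pituitary markers tested 1, Pitx1, fell, with 3, 3 and 4 counts in the knockout and 37, 36 and 54 in wild type, and the median of the list was -2.04. In bulk RNA, fewer cells of a type and less RNA per cell cannot be told apart.

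Promoter windows show the sequence from which 3 of the genes start. The first 2 are those of Foxo1 and Irs4, the members with the lowest p-values, and the last is that of Akt1, the member whose window held motifs. Each is the 250 bases before a RefSeq start in GRCm38.p6, read 5′ to 3′ on the gene's strand. Capitals mark a FOXO element (GTAAACA), a nuclear receptor half-site (AGGTCA) or a steroid receptor half-site (AGAACA), each searched on both strands, and none of the 3 motifs contains another.
Foxo1, plus strand, chr3:52268087-52268336: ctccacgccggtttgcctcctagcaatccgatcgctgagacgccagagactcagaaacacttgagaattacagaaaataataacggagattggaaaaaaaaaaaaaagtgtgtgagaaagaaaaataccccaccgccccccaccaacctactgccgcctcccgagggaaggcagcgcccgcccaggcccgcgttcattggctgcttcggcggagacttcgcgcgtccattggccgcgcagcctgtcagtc
Irs4, minus strand, chrX:141725218-141725467: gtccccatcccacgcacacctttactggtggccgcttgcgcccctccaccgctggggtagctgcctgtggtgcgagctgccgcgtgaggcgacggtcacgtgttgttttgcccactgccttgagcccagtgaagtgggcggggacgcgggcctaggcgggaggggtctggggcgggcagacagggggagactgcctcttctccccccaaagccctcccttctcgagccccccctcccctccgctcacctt
Akt1, minus strand, upstream start, chr12:112674885-112675134: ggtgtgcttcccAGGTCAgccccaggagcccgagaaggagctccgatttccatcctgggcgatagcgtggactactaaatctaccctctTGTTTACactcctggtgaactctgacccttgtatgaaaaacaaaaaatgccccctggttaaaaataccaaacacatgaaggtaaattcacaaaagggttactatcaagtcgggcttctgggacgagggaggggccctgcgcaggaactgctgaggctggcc

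Of the 9 genes, 8 matched the RefSeq promoter table, with 13 windows between them, and Insr had no entry. The Akt1 window printed here held the FOXO element 161 bases and the nuclear receptor half-site 238 bases before the start, counted to the first base of each match. The other 12 windows held none of the 3 motifs, those of Foxo1 and Irs4 included. Among all 32851 promoter windows of that length, 3.17% held the FOXO element, 14.0% the nuclear receptor half-site and 16.1% the steroid receptor half-site. A match is a run of letters and not a shown binding site. Windows of the adaptor genes were rich in G and C, at 72.4% for Irs1, 72.8% for Irs2 and 69.2% for Irs4, and that of Foxo1 had 56.0%, against a median of 52.4% over all windows.

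Levels between genes are compared per kilobase of exon, as FPKM (CPM divided by exon length, with TMM scaling of the libraries). Akt1, the AKT gene found in most tissues, had the highest level per kilobase, at 56.2 ± 1.57 FPKM in the knockout and 54.1 ± 3.75 FPKM in wild type (SD, n = 3 each). Irs4 came next, at 19.0 ± 3.7 FPKM in the knockout and 27.1 ± 3.92 FPKM in wild type, followed by Irs2, at 14.1 ± 0.869 FPKM and 14.9 ± 0.917 FPKM in the same groups. Pik3r1 came after Irs2 in both groups. Insr and Foxo3 stood below it, and their library ranges overlapped in both groups, so their order is not resolved. Akt2, Foxo1 and Irs1 followed in that order in both groups, with Irs1 lowest at 3.01 ± 0.107 FPKM in the knockout and 2.81 ± 0.313 FPKM in wild type. No other neighbours in this order had overlapping ranges in either group. Reads in the part of the Irs4 exons shared with another gene were not counted, so the level of Irs4 may be understated.

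**Figure D1:**
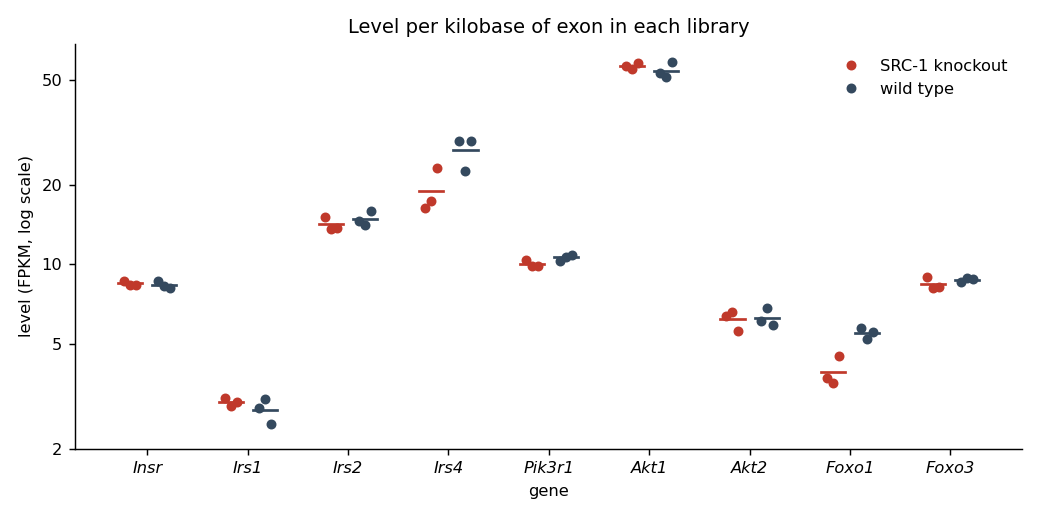
The level of each gene (FPKM, log scale) is shown in each library, with points for libraries, bars for group means, knockout in red and wild type in dark blue. Akt1 lies at 51.0 FPKM or more in all 6 libraries, and Foxo1 has its 3 knockout points, 3.55 to 4.48 FPKM, below its 3 wild-type points, 5.23 to 5.72 FPKM.

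Insr encodes the insulin receptor itself (GRCm39 chromosome 8, 3200922 to 3329649, minus strand). It had 81.8, 78.8 and 78.7 CPM (counts scaled to library size) in the knockout, against 81.7, 78.0 and 76.7 CPM in wild type. The groups overlapped, and the 6 libraries lay close together. In edgeR's quasi-likelihood test, adjusted over all genes by Benjamini-Hochberg, Insr had a log2 fold change of 0.018 ± 0.061 (SE), a 95% interval from -0.12 to 0.15 and an adjusted p of 0.944. Insr also had a small spread between libraries, with a coefficient of variation of 2.2% in the knockout and 3.29% in wild type. For 7528 genes between 20 and 200 CPM the median coefficients were 5.64% and 5.9% in the same groups.

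Insulin's own genes gave almost no counts. Ins1 had 0 counts in all 6 libraries, and Ins2 had 0 in all but wild-type replicate 2, which had 1. A count of 0 allows up to 3 counts, or 0.0642 to 0.0819 CPM by library, for counting error only. The related receptor gene Igf1r, which binds insulin-like growth factors, had 51.9, 49.1 and 42.8 CPM in the knockout against 48.1, 49.7 and 41.3 CPM in wild type. Insr made up 69.2 ± 1.94% of the summed FPKM of Insr, Igf1r and Insrr in the knockout and 69.3 ± 2.07% in wild type (SD, n = 3 each).

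The 3 IRS genes, whose products dock PI3K to the receptor, differed in level, in spread and in the size of their difference between genotypes. Irs1 (chromosome 1, 82210826 to 82269160, minus strand) had 28.6, 26.7 and 27.5 CPM in the knockout, against 26.3, 28.3 and 22.7 CPM in wild type. The lowest library of Irs1 was wild-type replicate 3, and the other 5 lay close together. The difference of Irs1, a log2 fold change of 0.10 ± 0.088 (SE; 95% interval -0.094 to 0.30), did not pass (adjusted p 0.729 by edgeR).

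Irs2 is an adaptor gene known as a FOXO target in liver (chromosome 8, 11034681 to 11058929, minus strand). It had 102.9, 92.2 and 93.3 CPM in the knockout, against 99.2, 95.9 and 107.9 CPM in wild type. The groups overlapped, and the highest value was wild-type replicate 3. The log2 fold change was -0.071 ± 0.073 (SE), adjusted p 0.778 by edgeR, with a 95% interval from -0.23 to 0.09. The ratio of Irs2 to Irs1 per kilobase was 4.85, 4.66 and 4.57 in the knockout, against 5.09, 4.56 and 6.42 in wild type. Its log2 difference of -0.18 had an exact two-sided permutation p of 0.4, where 3 against 3 libraries cannot go below 0.1.

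Irs4 (chromosome X, 140493994 to 140508213, minus strand) encodes the adaptor known for its presence in the hypothalamus. Its level was 102.3, 108.6 and 145.1 CPM in the knockout, against 183.3, 140.8 and 183.2 CPM in wild type. Knockout replicates 1 and 2 were the 2 lowest libraries, but knockout replicate 3 lay above wild-type replicate 2, so the groups overlapped. The log2 fold change of -0.51 ± 0.16 (SE) had an unadjusted p of 0.0154 and an adjusted p of 0.235 by edgeR, and its 95% interval ran from -0.89 to -0.13. DESeq2 called Irs4, with an adjusted p of 0.00456, and none of the other alternatives did.

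The spread of Irs4 was the widest of the 9 genes in each genotype, with a coefficient of variation of 19.5% in the knockout and 14.5% in wild type. Of genes with a like level, 97.6% had a smaller coefficient in the knockout and 94.2% in wild type. Exons of Gm15295 on the opposite strand cover 26.3% of the Irs4 exon bases, and reads in the shared part were not counted to either gene. Levels per kilobase used the full exon length, so the level and share of Irs4 may be understated and the shares of other Irs genes overstated. Gm15295 had 125, 139 and 131 counts in the knockout and 128, 119 and 146 in wild type. Irs4 supplied 47.2%, 51.1% and 58.0% of the summed FPKM of the 4 mouse Irs genes in the knockout, against 62.5%, 56.5% and 61.3% in wild type, and Irs3 under 1% in every library. The share of Irs1 was 8.36 ± 0.777% in the knockout and 6.34 ± 1.3% in wild type (SD, n = 3 each).

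Pik3r1 (chromosome 13, 101817269 to 101904725, minus strand) encodes regulatory subunits of PI3K. It had 119, 113 and 113 CPM in the knockout, against 118, 122 and 124 CPM in wild type, and only knockout replicate 1 lay within the wild-type range. Its log2 fold change by edgeR, -0.083 ± 0.061 (SE), had an adjusted p of 0.66 and a 95% interval from -0.22 to 0.053. Among the PI3K regulatory subunit genes, Pik3r1 made up 22.9%, 22.2% and 22.5% of the summed FPKM of Pik3r1, Pik3r2 and Pik3r3 in the knockout, against 24.4%, 24.3% and 24.6% in wild type. These shares did not overlap, and those of Pik3r3 did not either, at 35.3% to 36.4% in the knockout and 31.5% to 33.9% in wild type. Shares within a family depend on each other, so these separations are not independent results, and how often shares separate in other families was not counted. Pik3r2 had the largest share in every library, at 41.0% to 42.3% in the knockout and 41.8% to 44.2% in wild type.

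AKT kinases carry the signal on from PI3K. Akt1 (chromosome 12, 112620255 to 112641318, minus strand) had 171.0, 166.1 and 175.7 CPM in the knockout, against 161.6, 154.9 and 177.1 CPM in wild type. Akt2, the AKT gene most tied to insulin-driven glucose uptake (chromosome 7, 27290977 to 27340251, plus strand), had 45.6, 47.1 and 39.9 CPM in the knockout, against 43.4, 49.0 and 42.1 CPM in wild type. In both genes the groups overlapped, with log2 fold changes of 0.055 ± 0.07 for Akt1 and -0.019 ± 0.086 for Akt2 (SE). Their adjusted p-values by edgeR were 0.83 and 0.957, with 95% intervals from -0.10 to 0.21 and from -0.21 to 0.17. The log2 ratio of Akt2 to Akt1 was -3.19 ± 0.167 in the knockout and -3.11 ± 0.206 in wild type (SD, n = 3 each), and its difference of -0.077 had an exact two-sided permutation p of 0.7. Reads that match Akt2 and its copy Akt2-ps equally well were not counted, and Akt2-ps had 9 to 18 counts by library.

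**Figure D2:**
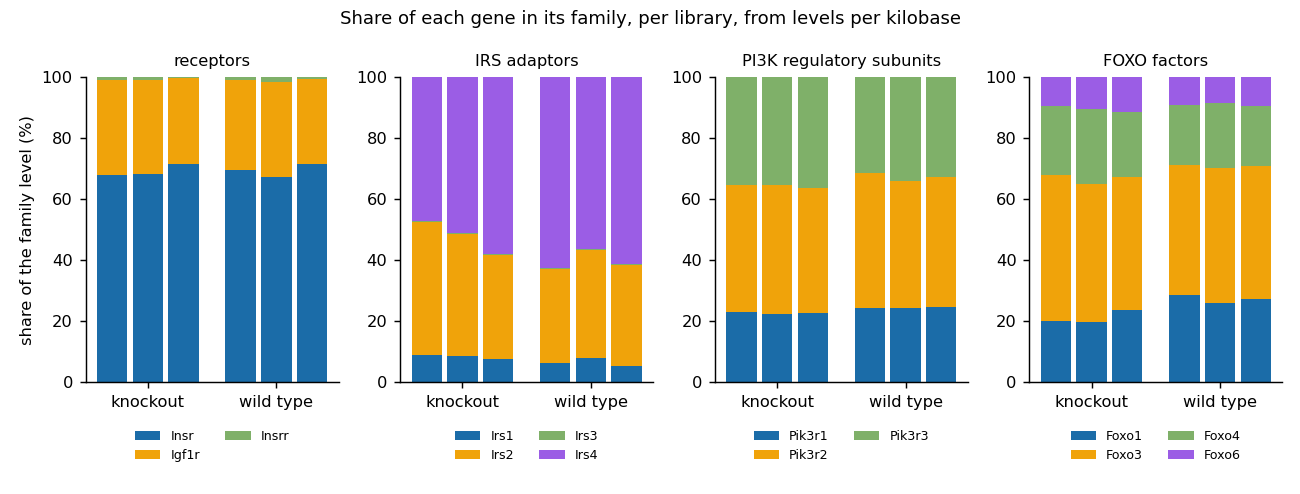
Stacked bars give the share (%) of each gene in the summed level per kilobase of its family, one bar per library, with knockout libraries left of wild-type libraries. The Insr bars lie between 67.2% and 71.4% in all 6 libraries, and the Foxo1 bars are shorter in the knockout, at 19.8% to 23.7% against 26.0% to 28.5% in wild type.

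Foxo1 (chromosome 3, 52175758 to 52257530, plus strand) encodes the factor on which AKT acts. It had 862, 782 and 1136 counts in the knockout, against 1295, 1099 and 1272 in wild type. Scaled to library size these were 20.5, 19.7 and 24.9 CPM in the knockout, against 31.8, 29.0 and 30.6 CPM in wild type. Every knockout value lay below every wild-type value, and such separation in either direction was found for 17.6% of the 20257 genes. Knockout replicate 3 was the knockout library nearest to wild type. The log2 fold change of -0.49 ± 0.094 (SE; 95% interval -0.70 to -0.28) had an unadjusted p of 0.000375 and an adjusted p of 0.0481 by edgeR, just under the threshold of 0.05. In either direction 0.834% of the genes tested passed that threshold. An unadjusted p under 0.05 was found for 13% of them and for 2 of the 9 members, Foxo1 and Irs4.

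The sign of Foxo1 held under all 15 alternatives, but the call did not. It passed in 6 of 15, with adjusted p from 3.03e-05 to 0.456 and log2 fold changes from -0.60 to -0.42. With 1 library left out, Foxo1 passed in 1 of 6 fits, without knockout replicate 3 (adjusted p 0.0176). Without wild-type replicates 1 to 3 the adjusted p was 0.138, 0.0668 and 0.0836, and without knockout replicates 1 and 2 it was 0.208 and 0.0961, all by edgeR. Without both first replicates, the pair with most growth hormone counts, it was 0.456 at a log2 fold change of -0.42.

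Foxo3 (chromosome 10, 42057841 to 42152691, minus strand) encodes the related FOXO factor. It had 60.6, 55.2 and 55.8 CPM in the knockout, against 58.0, 60.2 and 59.6 CPM in wild type. The highest and the lowest library were both knockout ones, so the groups overlapped. By edgeR the log2 fold change of Foxo3 came to -0.052 ± 0.065 (SE; 95% interval -0.20 to 0.093; adjusted p 0.825). The ratio of Foxo1 to Foxo3 per kilobase was 0.414, 0.437 and 0.546 in the knockout, against 0.669, 0.589 and 0.628 in wild type. These ratios did not overlap, and their log2 difference of -0.44 had an exact two-sided permutation p of 0.1, the smallest that 3 against 3 libraries allow. The ratio and the family share of Foxo1 both carry the Foxo1 values, so neither is a result independent of its fall. How often such ratios separate was not counted. Foxo4 and Foxo6 did not pass, with log2 fold changes of 0.051 ± 0.074 and 0.079 ± 0.14 (SE) and adjusted p of 0.855 and 0.882 by edgeR. The 4 FOXO genes summed to 18.5 ± 0.496 FPKM in the knockout and 20.1 ± 0.0572 FPKM in wild type (SD, n = 3 each).

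**Figure D3:**
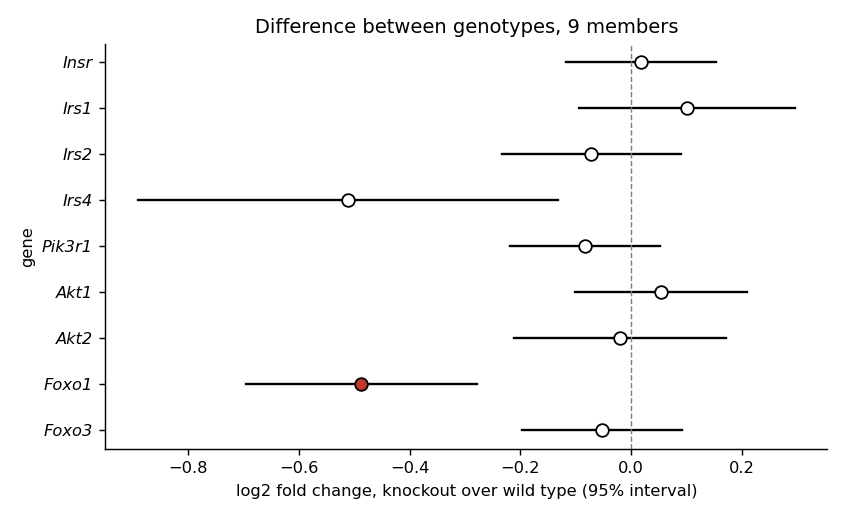
Points give the log2 fold change of each gene, knockout over wild type, with lines for 95% intervals and a filled point where the adjusted p is under 0.05. The interval of Foxo1 (-0.70 to -0.28) and that of Irs4 (-0.89 to -0.13) lie below 0, and the other 7 include 0.

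Knockout replicate 3 was the highest knockout library for Foxo1 and for Irs4. It was also the highest for 12 of 16 hypothalamus markers, 7 of 11 neuron markers, 7 of 9 astrocyte markers and 5 of 8 microglia markers, but for 1 of 12 endothelium and 0 of 10 oligodendrocyte markers. The share of all genes tested with that library highest was not counted, so these counts have no background beside them. The mean log2 CPM of 16 hypothalamus markers was 4.38, 4.26 and 5.12 in the knockout, against 5.43, 5.14 and 5.21 in wild type. None of these 16 markers passed the test, 12 had negative log2 fold changes, the median was -0.63, and their summed level ran from 855 to 1096 CPM in the knockout and from 958 to 1208 CPM in wild type. Foxo1 is also made by endothelium. Of 12 endothelium markers none passed, 11 had positive log2 fold changes, and their summed level was 252 to 285 CPM in the knockout and 201 to 261 CPM in wild type, with none at 0. Of 12 ependymal and tanycyte markers 8 fell, their summed level was 96.8 to 119 CPM in the knockout and 241.5 to 260.5 CPM in wild type, and none was at 0. The part of these cell markers in the Foxo1 and Irs4 values was not tested.

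**Figure D4:**
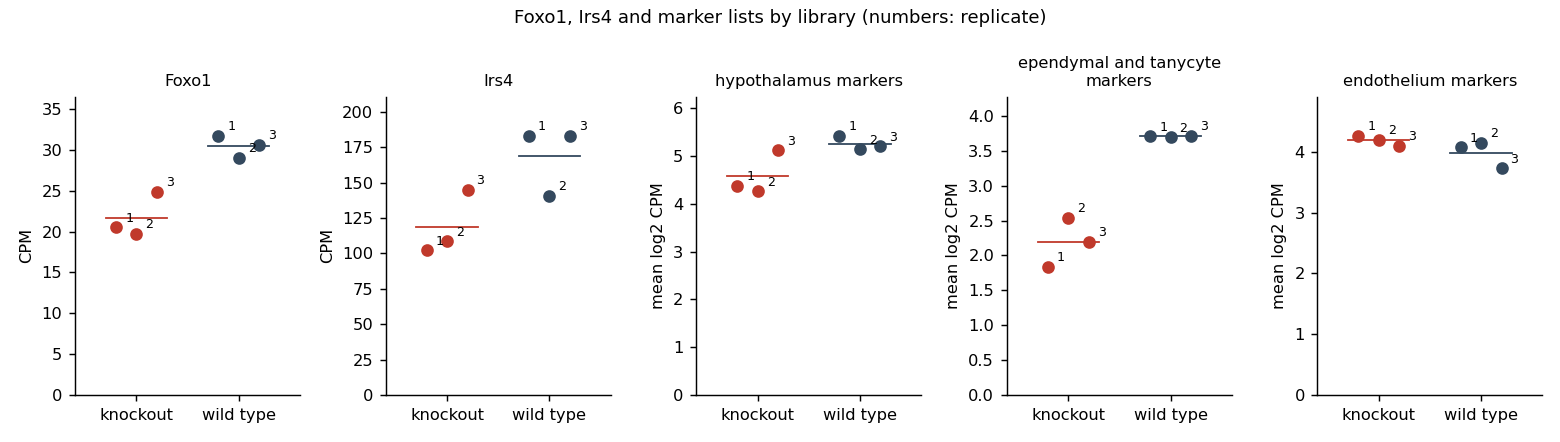
The first pair of panels shows the CPM of Foxo1 and Irs4, and the other 3 the mean log2 CPM of marker lists, one point per library numbered by replicate, with bars for group means and axes from 0. Knockout replicate 3 is the highest knockout point for Foxo1 (24.9 CPM), Irs4 (145.1 CPM) and the hypothalamus markers (5.12), but not for the ependymal and tanycyte markers (2.2).

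The genes with the pattern most like Foxo1 over the 6 libraries were Tesc, Nxn, Odc1, Gpc3 and Icosl, out of 13913 compared. Likeness was the root mean square difference between log2 CPM profiles centred on each gene, which was 0.0419 for Tesc, 0.0531 for Nxn, 0.056 for Odc1, 0.0593 for Gpc3 and 0.0676 for Icosl. None of the 5 passed by edgeR, and the lowest adjusted p was 0.0516 for Odc1, the first enzyme of polyamine synthesis.

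The rest of the route was covered by 9 lists of 124 genes, of which 118 were tested. The lists were chosen with earlier results of these data known, so counts within them do not test whether the route changed. Of the 118, 1 fell, Txnip, none rose, 20 had an unadjusted p under 0.05, and the median log2 fold change was -0.016. Over all genes tested, 0.834% passed in either direction and 13% had an unadjusted p under 0.05 by edgeR. The steps between receptor and FOXO showed no call. Of 15 adaptors and inhibitors at the receptor none passed, with a median of -0.057. Those with the lowest p were Socs3, an inhibitor of cytokine and insulin signalling, at 1.82 ± 0.752 CPM in the knockout and 3.44 ± 0.722 CPM in wild type (adjusted p 0.198), and the docking protein gene Gab1, at 50.6 ± 7.8 CPM and 40.6 ± 2.33 CPM in the same groups (adjusted p 0.233; SD, n = 3 each, edgeR). Socs3 passed in 3 of 15 alternatives, 1 of them without knockout replicate 2 (-1.29, adjusted p 0.0357 by edgeR), and Gab1 passed in 1. Of 12 PI3K subunits none passed, with a median of -0.0075, and the lowest p were those of Pik3c3 (log2 fold change -0.24 ± 0.068, adjusted p 0.156) and Pik3r3 (0.16 ± 0.065, adjusted p 0.334; SE, edgeR). Pik3c3 is the PI3K of autophagy and endosomes, and its knockout values of 57.9, 55.3 and 58.4 CPM lay below its wild-type values of 72.0, 65.7 and 64.3 CPM. Of the 12 subunit genes 3 did not overlap, against 17.6% of all genes tested.

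Phosphatases that oppose PI3K and AKT did not pass either, at 0 of 11 with a median of 0.01. Phlpp1, which removes phosphate from AKT, had 155.5, 132.6 and 123.4 CPM in the knockout, against 111.7, 120.2 and 115.0 CPM in wild type (log2 fold change 0.25 ± 0.087, SE; adjusted p 0.247 by edgeR). The groups of Phlpp1 did not overlap, as 1 of the 11, against 17.6% of all genes tested. Inppl1, a lipid phosphatase gene, followed with 0.15 ± 0.085 (SE; adjusted p 0.541 by edgeR). Of 13 AKT kinases and activators 0 passed, with a median of -0.048. Sgk2, a kinase related to AKT (0.47 ± 0.18, adjusted p 0.31), and Prr5, a partner of the mTOR complex that phosphorylates AKT (-0.19 ± 0.074, adjusted p 0.312), had the lowest p (SE, edgeR). Of 17 AKT substrates and mTORC1 genes 0 passed, with a median of 0.011, led by Gsk3b (0.12 ± 0.062, adjusted p 0.457) and Eif4ebp2 (-0.19 ± 0.13, adjusted p 0.633; SE, edgeR).

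Among 18 FOXO relatives and regulators 0 passed, with a median of -0.0055. The lowest p were those of Mapk8, the stress kinase JNK1 (0.18 ± 0.062, adjusted p 0.224), and Sirt2, a deacetylase abundant in oligodendrocytes (0.15 ± 0.068, adjusted p 0.371; SE, edgeR). Of 22 FOXO target genes, known mostly from other tissues, 1 fell and 0 rose, with a median of -0.051. An unadjusted p under 0.05 was found for 7 of the 22, against 13% of all genes tested. Because the list was chosen with earlier results of these data known, this count is no test of FOXO targets. Those 7 went both ways, with Txnip, Bcl6, Sesn1, Sesn3 and Cited2 lower in the knockout and Fbxo32 and Cat higher. Bcl6, a transcriptional repressor, had 17.6, 23.3 and 20.7 CPM in the knockout, against 25.8, 31.5 and 33.2 CPM in wild type, and Fbxo32, a ubiquitin ligase gene of muscle atrophy, had 20.9, 18.5 and 16.8 CPM against 12.6, 15.6 and 11.8 CPM in the same groups. Neither gene overlapped between groups or passed by edgeR (adjusted p 0.0778 and 0.0961), and both were named after their values were seen. Of the 22 target genes 7 did not overlap, against 17.6% of all genes tested. Bcl6 passed in 5 of 15 alternatives, among them without wild-type replicate 1 (adjusted p 0.0487) and without knockout replicate 2 (adjusted p 0.0357), and Fbxo32 passed in 2. Txnip, which curbs glucose uptake and binds thioredoxin, had 15.2, 17.2 and 19.0 CPM in the knockout, against 31.9, 36.9 and 38.5 CPM in wild type. Its groups did not overlap, and the edgeR fit gave a log2 fold change of -1.06 ± 0.10 (SE; adjusted p 0.00392). Txnip passed in all 15 alternatives, with adjusted p up to 0.0221.

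The FOXO1 targets of feeding neurons, 4 of which are also among the hypothalamus markers, had the lowest median of the 9 lists, -1.33 over 6 genes, and none of the 6 passed. The list was not split by whether FOXO1 raises or lowers a gene, so its median is no measure of FOXO1 activity. Agrp, whose peptide drives feeding, had 1.53, 1.26 and 2.65 CPM in the knockout, against 3.73, 5.33 and 12.8 CPM in wild type (adjusted p 0.24 by edgeR). Pomc, the precursor of the satiety peptide alpha-MSH, had 6.46, 5.27 and 30.1 CPM in the knockout, against 77.0, 49.99 and 74.9 CPM in wild type (adjusted p 0.375 by edgeR). In both genes the groups did not overlap and knockout replicate 3 was the highest knockout library. The same held for Npy, another peptide gene of feeding. Of the 6 genes 3 thus did not overlap, against 17.6% of all genes tested. Pomc passed in 2 of 15 alternatives, 1 of them without knockout replicate 3 (log2 fold change -3.52, adjusted p 0.0226 by edgeR). Agrp passed in 2 and Npy in 1. Insulin and growth factor ligands and receptors had a median of -0.32 over 4 tested genes, of which none passed. The lowest p were those of Igf2 (-1.40 ± 0.68, adjusted p 0.518) and Insrr (-0.69 ± 0.41, adjusted p 0.557; SE, edgeR). Without wild-type replicate 3, Igf2 passed (-1.84, adjusted p 0.0369 by edgeR).

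**Figure D5:**
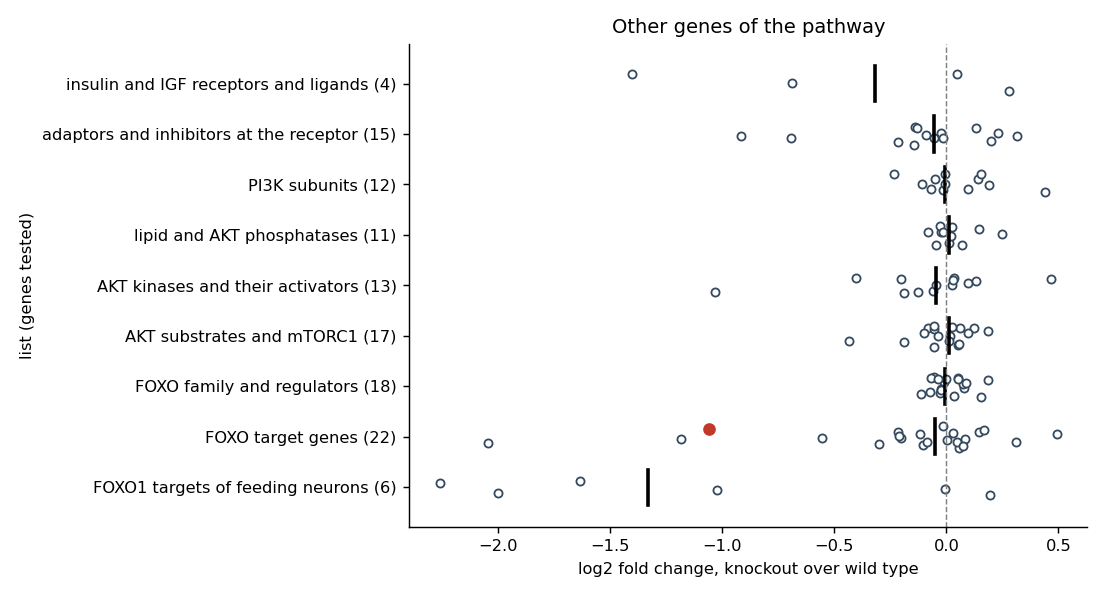
Each point is the log2 fold change, knockout over wild type, of 1 tested gene in 9 pathway lists, with black bars for list medians and a filled point where the adjusted p is under 0.05. Txnip (-1.06) is the filled point, the lists from adaptors to FOXO regulators have medians between -0.057 and 0.011, and the feeding neuron list has a median of -1.33.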

How the data were processed

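Raw read-pair counts per gene were deposited in 1 table covering 6 libraries of total RNA (RNeasy, Illumina TruSeq, per the labels' protocols). The submitters' processing notes name STAR 2.7.10a as the aligner. Read pairs were counted over exons of the mm39 (GRCm39) RefSeq annotation with featureCounts, version 2.0.0 per the file headers and 2.0.3 per the submitters' processing notes. No strand, multi-mapping or multi-gene option was set, per the file headers, so reads shared between genes or places were not counted. The exon length in that deposited table (unit other, bases) gave FPKM.

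Genotypes were compared over all genes with edgeR 4.0.16 in R 4.3.3: TMM, the default expression filter (minimum count 10), robust quasi-likelihood F-tests, Benjamini-Hochberg adjusted p under 0.05. SE was derived from the F statistic, as the size of the log2 fold change over the root of F. The members and lists were chosen with earlier results of these data known. The rule for named genes took all members, each list's called genes or otherwise its 2 lowest p, and the 5 genes nearest to a called member with at least 1 CPM (prior count 2). Family shares, the spread comparison, Igf1r and the motifs were added after values were seen. No 2 libraries of a group agreed within sampling noise (chi-square per degree of freedom 8.87 to 18.9). Alternatives included DESeq2 1.42.0 and limma-voom (limma 3.58.1).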

Additional observations from a re-analysis of the deposited data

How the results depend on the processing

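Of 135 values of the 9 members under 15 alternatives each, 121 kept their sign and side of the threshold. Foxo1 lost its call in 9, and Irs4 gained one with DESeq2 (-0.51). Signs turned for Insr with library totals alone (-0.013) and for Akt2 without wild-type replicate 2 (0.049), without knockout replicate 3 (0.051) and under limma-voom when libraries were weighted by quality (0.013), none of them called. With 1 library left out Akt2 ran from -0.066 to 0.051, and without both first replicates it was -0.072. With 1 library left out the log2 ratio of Akt2 to Akt1 ran from -0.17 to 0.031. The cause was not tested. Without division by exon length, Irs4 ranked 1 and Akt1 2 in wild type, Irs1 ranked 8 and Foxo1 9 in the knockout, and Pik3r1 ranked 3 and Irs2 4 in both groups.

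Members called numbered 0 with library totals alone, with at least 1 CPM in at least 3 libraries and with limma-voom, and 2 with DESeq2, against 1. Without 1 library (or both first replicates, chosen after seeing the data) they ran from 0 to 1, and pathway genes called from 1 to 3. Pathway genes called were 5 with no filter, 5 with DESeq2, 4 with the replicate block and 2 with limma-voom using quality weights, against 1. Agrp and Npy passed with the block (adjusted p 0.0211 and 0.0105), as did Bcl6 (0.0246), Agrp with DESeq2 (0.0341) and Pomc with quality weights (0.0187). Over all genes, 49 were higher and 120 lower. Library totals alone gave 15 and 51, no filter 350 and 616, the 1 CPM filter 21 and 63, DESeq2 292 and 532, limma-voom 22 and 81, and quality weights 135 and 266. Leaving out libraries gave 6 to 123 higher and 23 to 224 lower.

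The replicate block gave 54 higher and 101 lower genes, with Foxo1 at -0.49 (adjusted p 0.0483). Same-numbered libraries correlated at -0.21, 0.35 and 0.22 in their deviations from group means. Knockout replicates 2 and 3 correlated best with the wild-type library of the same number, and knockout replicate 1 with wild-type replicate 3 (0.26). These values do not settle whether the numbers pair the libraries.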

Other observations

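Igf2 and Sgk1 are pathway list genes with large differences between the wild-type libraries, and both were chosen after their values were seen. Igf2, a growth factor gene also made by meningeal cells, had 24.1, 25.7 and 27.4 CPM in the knockout, against 70.2, 114 and 19.8 CPM in wild type. The mean log2 CPM of 9 meningeal fibroblast markers was 1.84, 1.82 and 1.78 in the knockout, against 3.19, 4.08 and 1.89 in wild type, in the same order of wild-type libraries as Igf2. Of these 9 markers 1 fell, and all 9 had negative log2 fold changes. Sgk1, a kinase related to AKT and a known glucocorticoid target, had 29.9, 34.7 and 48.9 CPM in the knockout, against 31.3, 73.2 and 127.8 CPM in wild type, with wild-type replicate 3 highest. Neither gene passed by edgeR (adjusted p 0.518 for Igf2 and 0.595 for Sgk1). The part of meningeal tissue in these values was not tested.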
